A study of Mus musculus with 15 samples.

Results

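Cholesterol is made, taken up, moved and exported by a small set of proteins, and 29 genes that encode them were followed here through adipocyte differentiation of 3T3-L1 cells, a mouse embryonic fibroblast line that turns into fat-storing cells under a hormone mixture. The 29 genes were chosen by name, by matching the identifiers of the deposited count files to mouse symbols. They made up 29 of the 25700 genes listed, and all 29 passed the filter on low counts that left 12279 genes for testing. By role, 8 of them encode the enzymes from acetyl-CoA to squalene, 10 the enzymes from squalene to cholesterol, 4 the sterol-sensing machinery, 4 proteins of uptake and intracellular transport, and 3 proteins of efflux and storage.

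RNA sequencing covered 5 groups of 3 libraries. Wild-type (WT) 3T3-L1 cells and cells depleted of MIGA2 (MIGA2-KO), a protein of the mitochondrial outer membrane, were sampled at day 0, before induction, and at day 6. A line described as overexpressing a GFP-tagged MIGA2 (MIGA2-GFP, where GFP is green fluorescent protein) was analysed at day 6 alone. All day 0 cells grew in medium with calf serum, whereas all day 6 cells had passed through fetal bovine serum with dexamethasone, IBMX (a phosphodiesterase inhibitor) and insulin, then serum with insulin, then serum alone, so the serum, the hormones and the time cannot be told apart. The labels give neither the promoter behind MIGA2-GFP, nor whether a line is 1 clone, nor whether the 3 replicates were separate cultures. The p-values therefore measure the spread between these libraries, which may be technical.

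Cells build cholesterol from acetyl-CoA through mevalonate, the isoprenoid farnesyl diphosphate, squalene and lanosterol. The transcription factor SREBP-2, encoded by Srebf2, switches on most of these enzymes: when sterols in the endoplasmic reticulum run low, SCAP carries it to the Golgi for cleavage, and when sterols are plentiful the INSIG proteins hold SCAP back. Liver X receptors, activated by oxysterols, switch on the exporters and the ubiquitin ligase MYLIP. Adipocytes store much of their cholesterol free at the surface of the lipid droplet, and differentiating fat cells also make large amounts of fatty acids under the related factor SREBP-1.

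Levels are given as CPM, read counts scaled to a common library size. Library totals ran from 10748668 to 26003871 counts, with the WT day 0 libraries the deepest (19625147 or more). The targeted gene Miga2 stood at 145, 159.5 and 182 CPM in WT day 6, at 926, 74.5 and 70.0 in MIGA2-KO day 6, and at 166, 155 and 158 in MIGA2-GFP day 6. The last 2 MIGA2-KO libraries were thus below every WT library and the first far above, so that the group difference from WT was 1.14 ± 0.67 (log2, SE; adjusted p = 0.157) with all libraries and -1.17 (adjusted p = 1.44e-05) without the first. At day 0 MIGA2-KO was not lower (17.2, 21.4 and 22.5 CPM, beside 15.6, 17.8 and 13.6 in WT). The MIGA2-GFP day 6 libraries lay within the range of WT day 6, so the Miga2 counts do not show the overexpression. Whether reads from the tagged copy were counted is not recorded. The library with 926 CPM goes against its label and is called the library labelled MIGA2-KO day 6 replicate 1 throughout. That library, WT day 0 replicate 1 and WT day 6 replicate 1 stood apart from the other libraries of their groups (chi-square per degree of freedom over genes of 32.0 to 130 in pairs that include them, against 1.70 to 20.6 in all other pairs), so counts are also given without these 3. The adipocyte label was checked on 7 marker genes (Adipoq, Fabp4, Plin1, Cfd, Lipe, Cidec and Retn), whose summed level was 26.1 to 49.8 CPM in the day 0 libraries, 30470 to 44520 CPM in WT day 6, 5844 to 9330 CPM in MIGA2-KO day 6 and 19780 to 21460 CPM in MIGA2-GFP day 6. At day 0 Retn and Cfd were at 0 in both genotypes and Cidec was at 0 in MIGA2-KO, while at day 6 all 7 were above 10 CPM in all 3 groups. The summed level of 7 preadipocyte and fibroblast markers (Pdgfra, Pdgfrb, Dlk1, Ly6a, Thy1, Cd34 and Col1a1) ran the other way, with 9064 to 13010 CPM at day 0, 2175 to 2493 in WT day 6, 4449 to 8758 in MIGA2-KO day 6 and 2856 to 3061 in MIGA2-GFP day 6. Col1a1 made up most of this sum (6523 to 10302 CPM at day 0), and the genes did not all move together. By the test used below, 6 fell and none rose in WT (33.1% and 31.7% of all genes). In MIGA2-KO 4 fell and 1 rose (21% and 23.3%). At day 6, 3 were higher and 1 lower in MIGA2-KO than in WT (29.2% and 31.5%). The 7 macrophage markers summed to at most 102.5 CPM, and the leukocyte marker Ptprc was at 0 in every group. Osteoblast, endothelial and epithelial markers summed to at most 36.6, 2.45 and 11.1 CPM. Of 6 skeletal muscle markers, Ckm and Acta1 had 16.2 and 22.6 CPM in MIGA2-KO day 6 replicate 3. In every other library they had at most 0.085 and 1.36 CPM. Myod1, Myog and Myf5 were at 0 in MIGA2-KO day 6, and Des was at 9.47 CPM or more in all libraries.

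Promoter sequence was at hand for 23 of the 29 genes (RefSeq, build GRCm38.p6), and the windows compared reached from 250 bases before to 50 bases after each annotated start. Both strands were searched for the sterol regulatory element TCACNCCAC, to which SREBPs bind, for CCAAT, the site of the SREBP partner NF-Y, for the GC box GGGCGG, for the E-box CACGTG and for the liver X receptor element, a direct repeat of AGGTCA spaced by 4 bases. No matches of different motifs overlapped. The 23 genes have 29 windows, since a gene can have several starts. CCAAT was present in 20 of the 29 windows (37.4% of all 32851 windows hold it) and GGGCGG in 25 of 29 (35.7% of all windows). CACGTG was found in 7 of 29 windows (7.15% of all windows), where overlapping windows of Scap share the same site. The sterol regulatory element string TCACNCCAC was found in 1 window, that of Hmgcs1 (1.24% of all windows). The liver X receptor element was found in none (0.0152% of all windows). By gene, CCAAT was present for 20 of the 23, GGGCGG for 22 and CACGTG for 6. These are matches of letters and say nothing of binding. A site with other letters would be missed, so a window without a match is not shown to lack a sterol regulatory element. The 250 bases before the start are shown for 4 genes whose levels are described below: Cyp51, which had the largest difference between genotypes at day 6, Nsdhl, which rose in WT and fell in MIGA2-KO with little spread, Insig1, a sterol-sensing gene that rose in WT and did not pass the test in MIGA2-KO, and Hmgcs1, which differed little and carries the sterol regulatory element. They lie on GRCm38 at chr5:4104698-4104947 on the minus strand (Cyp51), chrX:72918271-72918520 on the plus strand (Nsdhl), chr5:28071162-28071411 on the plus strand (Insig1) and chr13:119690101-119690350 on the plus strand (Hmgcs1). Each is written 5′ to 3′ along its gene. Capitals mark CCAAT on either strand and, in Hmgcs1, also the sterol regulatory element, which begins 137 bases before the start. CCAAT occurs 1 time in Cyp51, 2 times in Nsdhl, 1 time in Insig1 and 3 times in Hmgcs1.
Cyp51: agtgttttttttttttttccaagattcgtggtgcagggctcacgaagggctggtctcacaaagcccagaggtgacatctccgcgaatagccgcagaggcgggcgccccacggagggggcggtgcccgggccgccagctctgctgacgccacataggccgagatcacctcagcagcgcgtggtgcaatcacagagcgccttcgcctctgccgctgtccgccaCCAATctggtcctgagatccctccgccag
Nsdhl: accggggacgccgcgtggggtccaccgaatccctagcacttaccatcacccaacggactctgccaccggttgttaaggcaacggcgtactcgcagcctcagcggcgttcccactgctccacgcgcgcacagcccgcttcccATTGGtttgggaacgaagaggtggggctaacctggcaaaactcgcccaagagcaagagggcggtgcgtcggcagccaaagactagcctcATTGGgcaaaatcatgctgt
Insig1: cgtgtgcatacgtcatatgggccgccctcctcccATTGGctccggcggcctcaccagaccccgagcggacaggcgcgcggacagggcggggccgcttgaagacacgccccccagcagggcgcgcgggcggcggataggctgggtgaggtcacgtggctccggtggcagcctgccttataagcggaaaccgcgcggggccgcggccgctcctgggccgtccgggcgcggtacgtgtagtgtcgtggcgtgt
Hmgcs1: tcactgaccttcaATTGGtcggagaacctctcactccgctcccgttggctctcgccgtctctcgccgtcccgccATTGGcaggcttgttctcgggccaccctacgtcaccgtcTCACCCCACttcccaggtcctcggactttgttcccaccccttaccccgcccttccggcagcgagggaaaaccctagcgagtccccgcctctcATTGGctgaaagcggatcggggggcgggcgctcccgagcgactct

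More of the 29 genes rose than fell in WT cells over the 6 days, and more fell than rose in MIGA2-KO cells. In WT, 15 of 29 rose from day 0 to day 6 (31.7% of all genes tested rose) and 7 fell (33.1% of all genes), by edgeR's quasi-likelihood test with Benjamini-Hochberg adjustment, which gave every adjusted p below. In MIGA2-KO, 3 of 29 rose (23.3% of all genes) and 18 fell (21% of all genes). The median log2 fold change of the 29 was 0.47 in WT and -0.90 in MIGA2-KO, beside -0.04 and 0.02 over all genes tested. The difference between the 2 time courses, tested as an interaction, was lower in MIGA2-KO for 21 of 29 genes (13.6% of all genes) and higher for 2 (13.7% of all genes). Without the 3 libraries that stood apart, 18 rose and 10 fell in WT, where 39% of all genes rose and 41.3% fell. In MIGA2-KO 3 then rose and 22 fell (30.1% and 29% of all genes), and for the interaction 3 were higher and 23 lower (31.9% and 30.4% of all genes). The share of the 29 genes that fell in WT lay below that of all genes in both fits.

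The summed level of the enzymes from squalene to cholesterol set MIGA2-KO apart at day 6. It was 862 to 922 CPM in WT day 0 and 2363 to 2437 CPM in WT day 6. In MIGA2-KO it was 1099 to 1104 CPM at day 0 and 493 to 733 CPM at day 6, where the highest value came from the library labelled MIGA2-KO day 6 replicate 1. In MIGA2-GFP day 6 it was 2038 to 2110 CPM, between the other day 6 groups. Cyp51 made up much of this sum, with a mean of 1010 of 2409 CPM in WT day 6 and 902 of 2063 CPM in MIGA2-GFP day 6. In MIGA2-KO day 6 Cyp51 held a mean of 72.7 of 575.5 CPM. The enzymes of this stretch did not all move together, as given below. The enzymes from acetyl-CoA to squalene summed to 637 to 810.3 CPM in WT day 0, 999.6 to 1276 in WT day 6, 657 to 664 in MIGA2-KO day 0, 332 to 402 in MIGA2-KO day 6 and 769.9 to 800.3 in MIGA2-GFP day 6. MIGA2-KO day 6 was thus the lowest group in both stretches of the pathway with no overlap, and WT day 6 the highest. The adipocyte markers were also lowest in MIGA2-KO among the day 6 groups, with no overlap, and their part in these results was not tested. In bulk RNA, fewer cells of a type and less RNA per cell cannot be told apart.

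**Figure D1:**
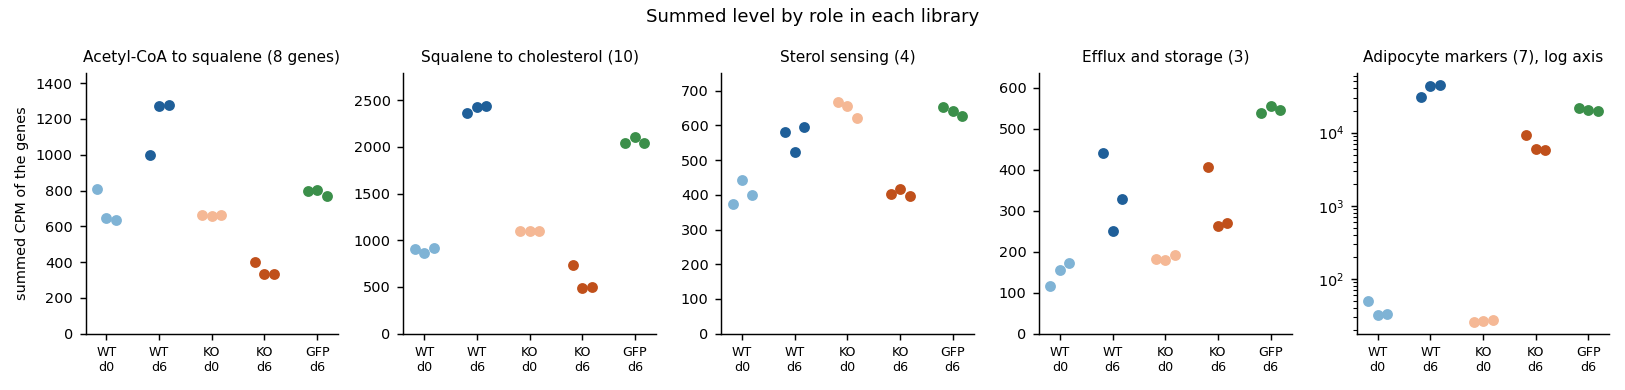
Summed level in CPM of the genes of 4 of the roles, and of the adipocyte markers on a log axis, with 1 point per library and the 5 groups side by side. The MIGA2-KO day 6 libraries lie below every other library for both groups of enzymes (at most 402 CPM before squalene and 733 CPM after it), while the adipocyte markers are at least 5844 CPM in all day 6 groups and at most 49.8 CPM at day 0.

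Among the 8 enzymes from acetyl-CoA to squalene, 3 rose and none fell in WT, and 7 fell and none rose in MIGA2-KO. At day 6 the 6 that differed between the genotypes were all lower in MIGA2-KO. Of all genes tested, 31.7% rose and 33.1% fell in WT, and 23.3% rose and 21% fell in MIGA2-KO. In MIGA2-KO at day 6, 31.5% of all genes were lower and 29.2% higher than in WT. The 37.5% of these enzymes that rose in WT is near the share over all genes. Pmvk, which encodes phosphomevalonate kinase, had 29.4, 17.9 and 15.5 CPM in the 3 WT day 0 libraries and 154, 230.2 and 251 CPM at WT day 6. It had 22.9, 21.3 and 23.1 CPM in MIGA2-KO day 0, 27.4, 27.5 and 22.7 in MIGA2-KO day 6 and 66.9, 64.4 and 64.8 in MIGA2-GFP day 6. All WT day 6 libraries were thus far above the rest, MIGA2-GFP lay in between, and MIGA2-KO day 6 overlapped day 0. Pmvk rose 10.1-fold in WT (log2 fold change 3.34 ± 0.22, adjusted p = 6.65e-09), did not pass the test in MIGA2-KO (0.21 ± 0.22, adjusted p = 0.469) and was lower in MIGA2-KO than in WT at day 6 (log2 difference -3.03 ± 0.22, adjusted p = 9.49e-08).

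Acat2, the cytosolic thiolase that starts the pathway by joining acetyl-CoA units, had 138, 97.2 and 105 CPM in WT day 0 and 294, 378 and 322 CPM in WT day 6. In MIGA2-KO it had 93.0, 93.4 and 101 CPM at day 0 and 83.0, 58.9 and 60.4 CPM at day 6, and in MIGA2-GFP day 6 185, 188 and 176 CPM. The 3 day 6 groups were separate, in the order WT, MIGA2-GFP, MIGA2-KO. Acat2 rose in WT (log2 fold change 1.55 ± 0.15, adjusted p = 4.88e-07) and was lower in MIGA2-KO than in WT at day 6 (-2.30 ± 0.16, adjusted p = 5.42e-08). Its fall in MIGA2-KO over time was small (-0.51 ± 0.15, adjusted p = 0.0143) and missed the threshold without MIGA2-KO day 0 replicate 3 (-0.47, adjusted p = 0.0508), day 6 replicate 2 (-0.42, adjusted p = 0.0661) or day 6 replicate 3 (-0.43, adjusted p = 0.0631). A near copy, Acat3 (97.7% identical over the aligned bases), held 164 counts beside 31248 for Acat2, and Tcp1 shares 445 bases with it, so reads that fit both are uncertain.

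Fdps, which makes farnesyl diphosphate, the branch point towards sterols and protein prenylation, showed the same order at lower contrast. Its CPM values were 254, 159 and 156 in WT day 0, 223, 324 and 331 in WT day 6, 187, 188 and 193 in MIGA2-KO day 0, 84.0, 66.7 and 65.1 in MIGA2-KO day 6 and 197, 198 and 195 in MIGA2-GFP day 6. It rose in WT (log2 fold change 0.63 ± 0.18, adjusted p = 0.00743), fell in MIGA2-KO (log2 fold change -1.40 ± 0.19, adjusted p = 2.41e-05), and was lower in MIGA2-KO than in WT at day 6 (log2 difference -2.02 ± 0.19, adjusted p = 9.06e-07).

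Mvd, the decarboxylase that yields isopentenyl diphosphate, was set apart by MIGA2-KO day 6 rather than by WT day 6. It had 76.7, 57.5 and 45.4 CPM in WT day 0 and 44.1, 58.5 and 64.5 in WT day 6, which overlapped. It had 43.2, 43.4 and 38.0 CPM in MIGA2-KO day 0, 13.0, 9.72 and 11.1 in MIGA2-KO day 6 and 23.7, 23.2 and 22.2 in MIGA2-GFP day 6. MIGA2-KO day 6 was the lowest group and MIGA2-GFP day 6 the next, with no overlap between them or with the rest. The log2 fold change over time was -0.10 ± 0.18 in WT (adjusted p = 0.624) and -1.88 ± 0.19 in MIGA2-KO (adjusted p = 1.57e-06), and at day 6 Mvd was lower than WT in MIGA2-KO (log2 difference -2.30 ± 0.19, adjusted p = 3.45e-07) and in MIGA2-GFP (-1.27 ± 0.18, adjusted p = 0.000203). The WT change passed as a fall after correction for gene length and GC content (-0.51, adjusted p = 0.000124) and as a rise without the 3 libraries that stood apart (0.26, adjusted p = 0.0332).

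Fdft1, the squalene synthase that commits farnesyl diphosphate to sterols, had 144, 115 and 115 CPM in WT day 0 and 109, 132 and 130.2 CPM in WT day 6. It had 98.5, 101 and 100.1 CPM in MIGA2-KO day 0, 51.5, 31.1 and 31.2 in MIGA2-KO day 6 and 123, 126 and 116 in MIGA2-GFP day 6. All MIGA2-KO day 6 libraries were below all the others, and the remaining 4 groups lay between 98.5 and 144 CPM. Fdft1 shares 774 bases with its neighbour Ctsb, so part of its counts is uncertain. The log2 fold change over time in MIGA2-KO was -1.40 ± 0.17 (adjusted p = 8.83e-06) and the difference from WT at day 6 was -1.71 ± 0.17 (adjusted p = 1.64e-06). Mvk, mevalonate kinase, had 29.1, 47.9 and 66.0 CPM in WT day 6 against 20.5, 24.5 and 20.7 in MIGA2-KO day 6, a difference of -1.12 ± 0.26 (adjusted p = 0.00207). Its WT libraries were spread widely at both days, from 29.1 to 66.0 CPM. In WT over time, Mvk and Fdft1 passed as higher without the 3 libraries that stood apart (0.54 and 0.19, adjusted p = 0.0027 and 0.0086), beside -0.008 and -0.011 with all libraries.

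The other 2 enzymes of this stretch did not pass the test between genotypes at day 6. Hmgcs1, the cytosolic synthase of hydroxymethylglutaryl-CoA and the gene with the sterol regulatory element printed above, ran from 100.5 to 160.3 CPM over all 15 libraries. It shares 462 bases with Gm48342, so part of its counts is uncertain. It had 142, 103 and 109 CPM in WT day 6 and 119, 112 and 117 in MIGA2-KO day 6, with a difference of -0.03 ± 0.15 and a 95% interval from -0.35 to 0.30. Its fall over time in MIGA2-KO (-0.43 ± 0.15, adjusted p = 0.0301) missed the threshold whenever any 1 of the 6 MIGA2-KO libraries was left out (-0.41 to -0.45, adjusted p = 0.053 to 0.083). In WT the change was -0.21 (adjusted p = 0.244) and passed without WT day 0 replicate 1 (-0.38, adjusted p = 0.00792) or WT day 6 replicate 1 (-0.36, adjusted p = 0.0444). Idi1, the isomerase of isopentenyl diphosphate, was the least abundant member, at 1.17 to 14 CPM and 1216 counts over all libraries, and 3 near copies in the mouse annotation make its counts uncertain. It fell in MIGA2-KO (log2 fold change -1.54 ± 0.40, adjusted p = 0.00553). In WT it had -0.85 ± 0.43 (adjusted p = 0.0921), which became -1.17 (adjusted p = 0.0103) without WT day 0 replicate 1 and -1.59 (adjusted p = 0.00579) without WT day 6 replicate 1, and its difference between genotypes at day 6, 0.65 ± 0.45 (adjusted p = 0.227), became 1.38 (adjusted p = 0.0177) without the latter.

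**Figure D2:**
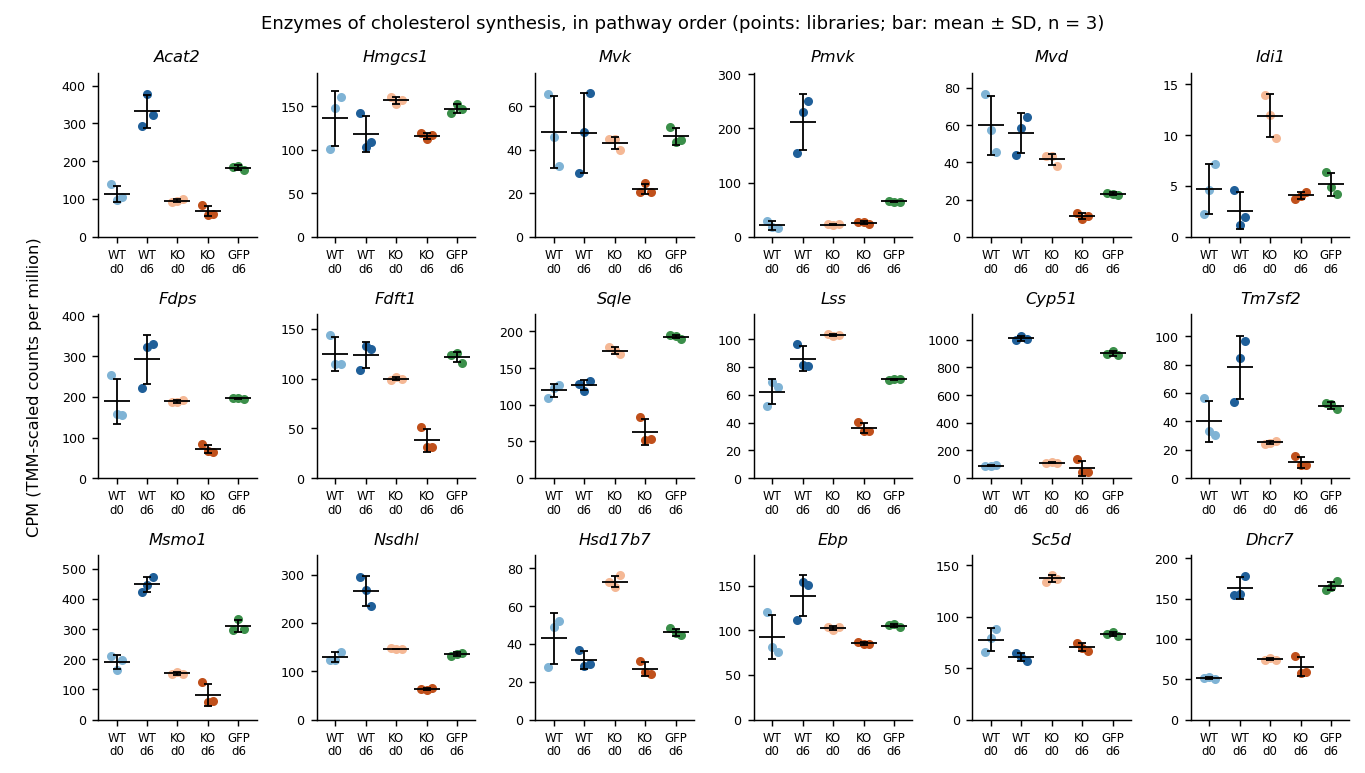
Level in CPM of the 18 synthesis enzymes, 1 panel per gene in pathway order, with 1 point per library and the mean ± SD (n = 3) of each of the 5 groups. Cyp51 and Pmvk are high in WT day 6 (998 to 1027 CPM and 154 to 251 CPM) and low in MIGA2-KO day 6, while Hmgcs1 stays between 100.5 and 160.3 CPM in all libraries.

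Of the 10 enzymes from squalene to cholesterol, 7 rose and 1 fell in WT (31.7% and 33.1% of all genes tested). None rose and 7 fell in MIGA2-KO (23.3% and 21% of all genes). At day 6, 8 were lower and none higher in MIGA2-KO than in WT (31.5% and 29.2% of all genes). Cyp51 (ENSMUSG00000001467), the cytochrome P450 that demethylates lanosterol, moved most. It had 89.8, 86.4 and 96.2 CPM in WT day 0 and 998, 1027 and 1005 CPM in WT day 6. In MIGA2-KO it had 112, 113 and 113 CPM at day 0 and 135, 41.2 and 41.5 CPM at day 6, and in MIGA2-GFP day 6 896, 922 and 889 CPM. WT and MIGA2-GFP day 6 stood far above everything else, and MIGA2-KO day 6 held 1 library above its day 0 level, the one labelled replicate 1, and 2 below it. Cyp51 rose 11.1-fold in WT (log2 fold change 3.48 ± 0.35, adjusted p = 5.21e-07), did not pass the test in MIGA2-KO (-0.64 ± 0.32, adjusted p = 0.123), and was 13.9-fold lower in MIGA2-KO than in WT at day 6 (-3.80 ± 0.35, adjusted p = 8.23e-07). When the library labelled MIGA2-KO day 6 replicate 1 was left out, the change in MIGA2-KO over time passed, at -1.45 (adjusted p = 1.26e-08), and the difference from WT at day 6 became -4.61 (adjusted p = 4.31e-12).

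Nsdhl, a dehydrogenase that removes a methyl group from the sterol ring, moved in opposite directions in the 2 genotypes with little spread. It had 124, 123 and 141 CPM in WT day 0 and 296, 269 and 235 in WT day 6. The MIGA2-KO libraries had 147, 146 and 146 CPM at day 0 and 62.9, 60.5 and 65.1 at day 6, and the MIGA2-GFP libraries 132, 137 and 139. WT day 6 was the highest group and MIGA2-KO day 6 the lowest, each clear of all others. Nsdhl rose in WT (log2 fold change 1.05 ± 0.10, adjusted p = 2.03e-07) and fell in MIGA2-KO (log2 fold change -1.22 ± 0.10, adjusted p = 1.1e-07). At day 6 it was lower than WT both in MIGA2-KO (-2.09 ± 0.10, adjusted p = 4.71e-09) and in MIGA2-GFP (-0.97 ± 0.10, adjusted p = 1.01e-05).

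Msmo1, the oxidase that works just before Nsdhl, had 209.6, 164 and 197 CPM in WT day 0 and 423, 447 and 473 CPM in WT day 6. It had 149.5, 157 and 152 CPM in MIGA2-KO day 0, 123, 59.2 and 63.0 in MIGA2-KO day 6 and 296, 332 and 300 in MIGA2-GFP day 6. Stretches of about 200 bases that Msmo1 shares with 10 other genes leave part of its counts uncertain. The first MIGA2-KO day 6 value again belongs to the library labelled replicate 1, at 2.02 times the mean of the other 2. Msmo1 rose in WT (log2 fold change 1.24 ± 0.21, adjusted p = 0.000103), fell in MIGA2-KO (-0.90 ± 0.21, adjusted p = 0.0027) and was lower in MIGA2-KO than in WT at day 6 (-2.45 ± 0.22, adjusted p = 5.64e-07). Tm7sf2, a sterol reductase that acts after Cyp51, had 53.4, 84.6 and 96.5 CPM in WT day 6, 15.8, 8.98 and 8.97 in MIGA2-KO day 6 and 52.9, 52.1 and 48.6 in MIGA2-GFP day 6, beside 24.2 to 56.5 CPM over the day 0 libraries of both genotypes. It rose in WT (log2 fold change 0.97 ± 0.26, adjusted p = 0.0039), fell in MIGA2-KO (log2 fold change -1.16 ± 0.28, adjusted p = 0.00318), and its difference at day 6 was -2.80 ± 0.28 (adjusted p = 1.73e-06).

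Sqle, the squalene epoxidase that is a control point of the pathway, and Lss, which closes the rings to lanosterol, were high in MIGA2-KO cells before differentiation and low after it. Sqle had 109, 123 and 126 CPM in WT day 0 and 128, 119 and 132 in WT day 6. Its MIGA2-KO values were 178, 174 and 169 CPM at day 0 and 83.4, 51.6 and 53.2 at day 6, beside 195, 194 and 189.9 in MIGA2-GFP day 6. Its WT groups overlapped, MIGA2-GFP day 6 was highest and MIGA2-KO day 6 lowest. Sqle fell in MIGA2-KO (log2 fold change -1.47 ± 0.15, adjusted p = 1.33e-06) and at day 6 was -1.01 ± 0.15 relative to WT in MIGA2-KO (adjusted p = 4.82e-05) but 0.61 ± 0.14 in MIGA2-GFP (adjusted p = 0.00542). Lss had 51.8, 69.1 and 65.6 CPM in WT day 0 and 96.1, 81.2 and 80.4 in WT day 6. MIGA2-KO cells held 104, 102 and 103 CPM at day 0 and 40.2, 34.1 and 34.1 at day 6, and MIGA2-GFP cells 70.7, 71.4 and 71.5. It rose in WT (0.47 ± 0.12, adjusted p = 0.00252) and fell in MIGA2-KO (-1.51 ± 0.12, adjusted p = 1.01e-07).

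Dhcr7, the reductase of the last step in 1 branch of the pathway, had 51.4, 53.4 and 50.1 CPM in WT day 0 and 155, 156 and 179 in WT day 6. The MIGA2-KO libraries had 74.2, 76.2 and 74.4 CPM at day 0 and 79.2, 57.8 and 59.6 at day 6, and the MIGA2-GFP libraries 161, 165 and 171. WT and MIGA2-GFP day 6 overlapped and were clear of the rest. It rose in WT (log2 fold change 1.66 ± 0.11, adjusted p = 9.14e-09) and was lower in MIGA2-KO at day 6 (log2 difference -1.32 ± 0.11, adjusted p = 4.47e-07). Its change in MIGA2-KO, -0.19 ± 0.11 (adjusted p = 0.184), passed, at -0.35 (adjusted p = 0.00673), once the library labelled MIGA2-KO day 6 replicate 1 was removed. The isomerase gene Ebp was lower in MIGA2-KO at day 6 (log2 difference -0.70 ± 0.16, adjusted p = 0.00135), a call lost after correction for gene length and GC content (-0.17). Hsd17b7, a keto reductase, and Sc5d, a desaturase, were the members of this stretch that did not pass the test between genotypes at day 6 (-0.23 ± 0.20 and 0.21 ± 0.11, adjusted p = 0.318 and 0.0999). Sc5d passed as lower after correction for gene length and GC content (-0.29, adjusted p = 0.00524). Both fell in MIGA2-KO over time (-1.45 ± 0.20 and -0.96 ± 0.11, adjusted p = 2.77e-05 and 3.29e-06) from day 0 levels, 70.1 to 76.2 and 134 to 141 CPM, that were the highest of all groups. Hsd17b7 in WT, -0.45 ± 0.19 (adjusted p = 0.0526), passed as a fall without WT day 0 replicate 1 (-0.69, adjusted p = 0.000237) or WT day 6 replicate 1 (-0.59, adjusted p = 0.0239).

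In the sterol-sensing group, the INSIG genes rose in WT while Srebf2 and Scap fell in both genotypes. Insig1, whose protein retains SCAP in the endoplasmic reticulum and is itself an SREBP target, had 76.0, 98.4 and 105 CPM in WT day 0 and 288, 229.8 and 251 CPM in WT day 6. It had 144, 148 and 145 CPM in MIGA2-KO day 0, 164, 154 and 156 in MIGA2-KO day 6 and 256, 263 and 248 in MIGA2-GFP day 6. WT and MIGA2-GFP day 6 overlapped, and MIGA2-KO day 6 lay below both. Insig1 rose in WT (log2 fold change 1.46 ± 0.12, adjusted p = 5.33e-08), showed 0.12 ± 0.12 in MIGA2-KO (adjusted p = 0.444), and was lower in MIGA2-KO at day 6 (log2 difference -0.70 ± 0.12, adjusted p = 0.00015). Insig2, the paralogue with the same role, had 132, 115 and 134 CPM in WT day 6, 58.2, 43.4 and 41.5 in MIGA2-KO day 6 and 116, 116 and 107 in MIGA2-GFP day 6, and 32.8 to 49.3 CPM at day 0. It rose in WT (log2 fold change 1.83 ± 0.13, adjusted p = 1.39e-08), and the interaction for it was -1.82 ± 0.18 (adjusted p = 7.14e-06).

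Srebf2 had 148, 191 and 156 CPM in WT day 0 and 91.2, 96.4 and 113 in WT day 6. Its MIGA2-KO values were 248, 245 and 232 CPM at day 0 and 94.4, 116 and 103 at day 6, beside 174, 166 and 176 in MIGA2-GFP day 6. The WT and MIGA2-KO day 6 libraries overlapped, and MIGA2-KO day 0 was above all other groups. Srebf2 fell in WT (log2 fold change -0.72 ± 0.12, adjusted p = 7.19e-05) and in MIGA2-KO (-1.21 ± 0.12, adjusted p = 9.05e-07). The 2 genotypes did not pass the test at day 6 (0.06 ± 0.12, 95% interval -0.19 to 0.31). At that time 14 of the 18 enzymes were lower in MIGA2-KO, beside 31.5% of all genes. The interaction for Srebf2, -0.49 (adjusted p = 0.0379), missed the threshold when 1 library of 8 was left out: WT day 0 replicate 3 (adjusted p = 0.0782), WT day 6 replicate 2 (0.0541) or 3 (0.0973), MIGA2-KO day 0 replicate 1 (0.082), 2 (0.0834) or 3 (0.0558), or MIGA2-KO day 6 replicate 1 (0.0688) or 3 (0.0789), with log2 values from -0.52 to -0.40. Scap, the escort of SREBP-2, shares 223 bases with a gene of 6 counts in all. It likewise had its highest level in MIGA2-KO day 0, at 226, 216 and 200.4 CPM, beside 114, 122 and 98.8 in WT day 0, 70.3, 83.4 and 96.1 in WT day 6 and 85.4, 104 and 96.9 in MIGA2-KO day 6. It fell by 0.42 on the log2 scale in WT (adjusted p = 0.00715) and by 1.17 in MIGA2-KO (adjusted p = 2.19e-06).

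**Figure D3:**
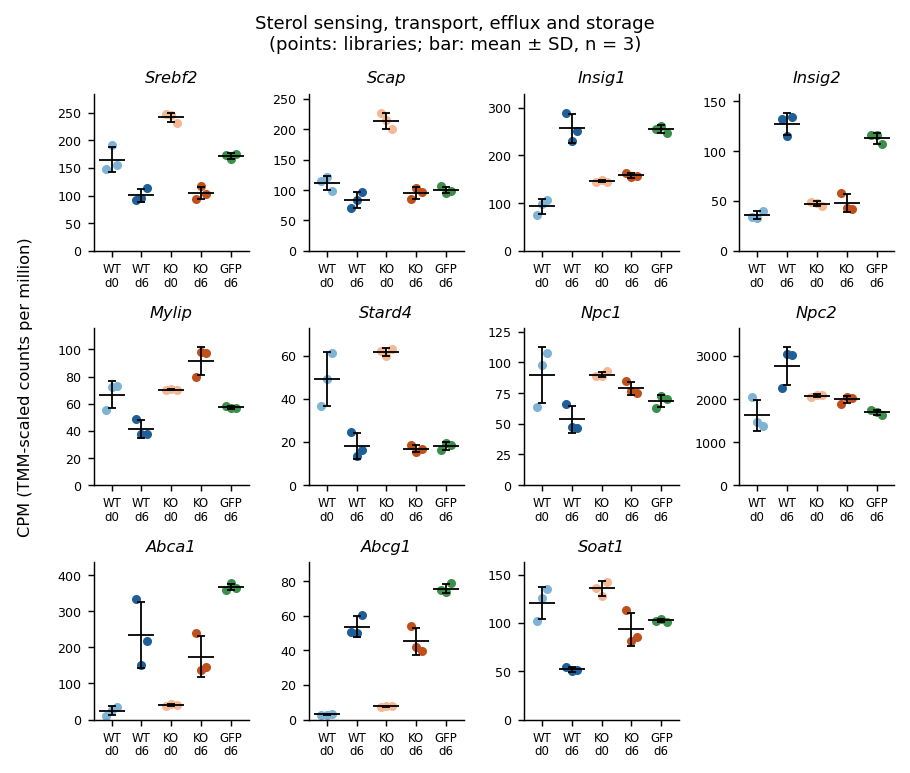
Level in CPM of the 11 genes of sterol sensing, uptake, transport, efflux and storage, 1 panel per gene, with 1 point per library and the mean ± SD (n = 3) of each group. Insig1 and Insig2 are high in WT and MIGA2-GFP day 6, Srebf2 and Scap are highest in MIGA2-KO day 0 (232 to 248 and 200.4 to 226 CPM), and Mylip is highest in MIGA2-KO day 6 (79.6 to 97.9 CPM).

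Among the genes of uptake and intracellular transport, Mylip was the 1 gene that fell in WT and rose in MIGA2-KO. Its protein, also called IDOL, is a ubiquitin ligase that marks lipoprotein receptors for breakdown. Mylip had 55.4, 72.1 and 72.8 CPM in WT day 0 and 48.7, 38.0 and 37.6 in WT day 6. MIGA2-KO cells held 70.2, 71.1 and 70.2 CPM at day 0 and 79.6, 97.9 and 97.1 at day 6, and MIGA2-GFP cells 58.5, 56.7 and 56.6. Among the day 6 groups WT was the lowest, MIGA2-GFP the next and MIGA2-KO the highest, without overlap, and MIGA2-KO day 6 was above all day 0 libraries too. Mylip fell in WT (log2 fold change -0.69 ± 0.13, adjusted p = 0.000299), and at day 6 it was higher in MIGA2-KO than in WT (log2 difference 1.14 ± 0.13, adjusted p = 6.29e-06). Its rise over time in MIGA2-KO was small (0.38 ± 0.13, adjusted p = 0.0275) and missed the threshold without any 1 of the MIGA2-KO libraries other than the one labelled day 6 replicate 1 (0.33 to 0.39, adjusted p = 0.0619 to 0.0947). The interaction was 1.06 ± 0.18 (adjusted p = 0.000686).

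Stard4, a soluble carrier that moves sterol between membranes and an SREBP target, fell in both genotypes. It had 36.6, 49.3 and 61.4 CPM in WT day 0 and 24.7, 13.4 and 16.1 in WT day 6. The MIGA2-KO libraries had 62.2, 59.6 and 63.2 CPM at day 0 and 18.5, 15.5 and 16.9 at day 6, and the MIGA2-GFP libraries 16.2, 19.5 and 18.7. The 3 day 6 groups overlapped one another and lay below all day 0 libraries. The log2 fold change was -1.44 ± 0.21 in WT (adjusted p = 2.26e-05) and -1.86 ± 0.21 in MIGA2-KO (adjusted p = 4.2e-06), and the interaction did not pass (-0.42 ± 0.29, adjusted p = 0.301). Npc2, the soluble lysosomal protein that hands cholesterol to NPC1, was the most abundant member, with 2265, 3036 and 3025 CPM in WT day 6, 1891, 2052 and 2026 in MIGA2-KO day 6 and 1746, 1698 and 1633 in MIGA2-GFP day 6. It rose in WT (log2 fold change 0.77 ± 0.14, adjusted p = 0.000272), and at day 6 was lower than WT in both other groups (-0.48 ± 0.14 in MIGA2-KO and -0.71 ± 0.14 in MIGA2-GFP, adjusted p = 0.00997 and 0.00199). Npc1, the membrane protein of the same export step, had 66.3, 47.8 and 47.0 CPM in WT day 6 and 85.1, 76.6 and 75.3 in MIGA2-KO day 6, and was higher in MIGA2-KO (log2 difference 0.56 ± 0.17, adjusted p = 0.0115). That call was lost without WT day 6 replicate 2 (0.48, adjusted p = 0.0525) or 3 (0.47, adjusted p = 0.053), and the correction for gene length and GC content left 0.08. The 2 partners of lysosomal export thus had opposite signs relative to WT in MIGA2-KO at day 6, but only the Npc2 call held under all alternatives.

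The exporters rose in both genotypes. Abcg1, which loads cholesterol onto high-density lipoprotein, had 2.78, 2.78 and 3.48 CPM in WT day 0 and 50.6, 49.9 and 60.7 in WT day 6. Its MIGA2-KO values were 7.54, 7.65 and 8.11 CPM at day 0 and 53.9, 42.1 and 39.7 at day 6, beside 74.7, 73.7 and 78.8 in MIGA2-GFP day 6. Every day 6 library was above every day 0 library, and at day 0 MIGA2-KO was above WT without overlap. Abcg1 rose 17.8-fold in WT (log2 fold change 4.15 ± 0.15, adjusted p = 1.02e-11) and less in MIGA2-KO (2.54 ± 0.14, adjusted p = 2.78e-09), with an interaction of -1.61 ± 0.20 (adjusted p = 4.34e-05). At day 6 the difference of MIGA2-KO from WT was -0.25 ± 0.13 (adjusted p = 0.107), which passed (-0.39, adjusted p = 0.0132) once the library labelled MIGA2-KO day 6 replicate 1 was removed. The smaller rise in MIGA2-KO therefore started from a higher day 0 level.

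Abca1, which passes cholesterol to lipid-poor apolipoproteins, had 10.5, 26.6 and 34.8 CPM in WT day 0 and 334, 151 and 218 in WT day 6. MIGA2-KO cells held 37.2, 42.8 and 41.5 CPM at day 0 and 240.1, 138 and 144 at day 6, and MIGA2-GFP cells 359.8, 377 and 365. The WT and MIGA2-KO day 6 libraries overlapped, and in each the library numbered 1 was the highest. Abca1 rose in WT (log2 fold change 3.29 ± 0.38, adjusted p = 2.19e-06) and in MIGA2-KO by a log2 fold change of 2.10 ± 0.36 (adjusted p = 0.00024). The interaction, -1.18 ± 0.49 (adjusted p = 0.0873), passed without WT day 0 replicate 3 (-1.55, adjusted p = 0.0335) or the library labelled MIGA2-KO day 6 replicate 1 (-1.49, adjusted p = 0.0393). MIGA2-GFP was above MIGA2-KO at day 6 (log2 difference 1.08 ± 0.35, adjusted p = 0.0185), a call that was lost without MIGA2-KO day 6 replicate 2 (0.94, adjusted p = 0.077) or 3 (0.96, adjusted p = 0.074).

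Soat1, the enzyme that esterifies cholesterol for storage in droplets, had 103, 125 and 135 CPM in WT day 0 and 54.4, 50.4 and 50.9 in WT day 6. The MIGA2-KO libraries had 137, 128 and 143 CPM at day 0 and 113, 81.4 and 85.5 at day 6, and the MIGA2-GFP libraries 103, 104 and 101. WT day 6 was the lowest group, clear of all others. Soat1 fell in WT (log2 fold change -1.22 ± 0.13, adjusted p = 1e-06) and in MIGA2-KO (-0.54 ± 0.13, adjusted p = 0.00301). At day 6 it was higher than WT in MIGA2-KO (log2 difference 0.85 ± 0.13, adjusted p = 7.3e-05) and in MIGA2-GFP (0.99 ± 0.13, adjusted p = 9.84e-05). The MIGA2-KO difference was 0.13 (adjusted p = 0.443) after correction for gene length and GC content.

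**Figure D4:**
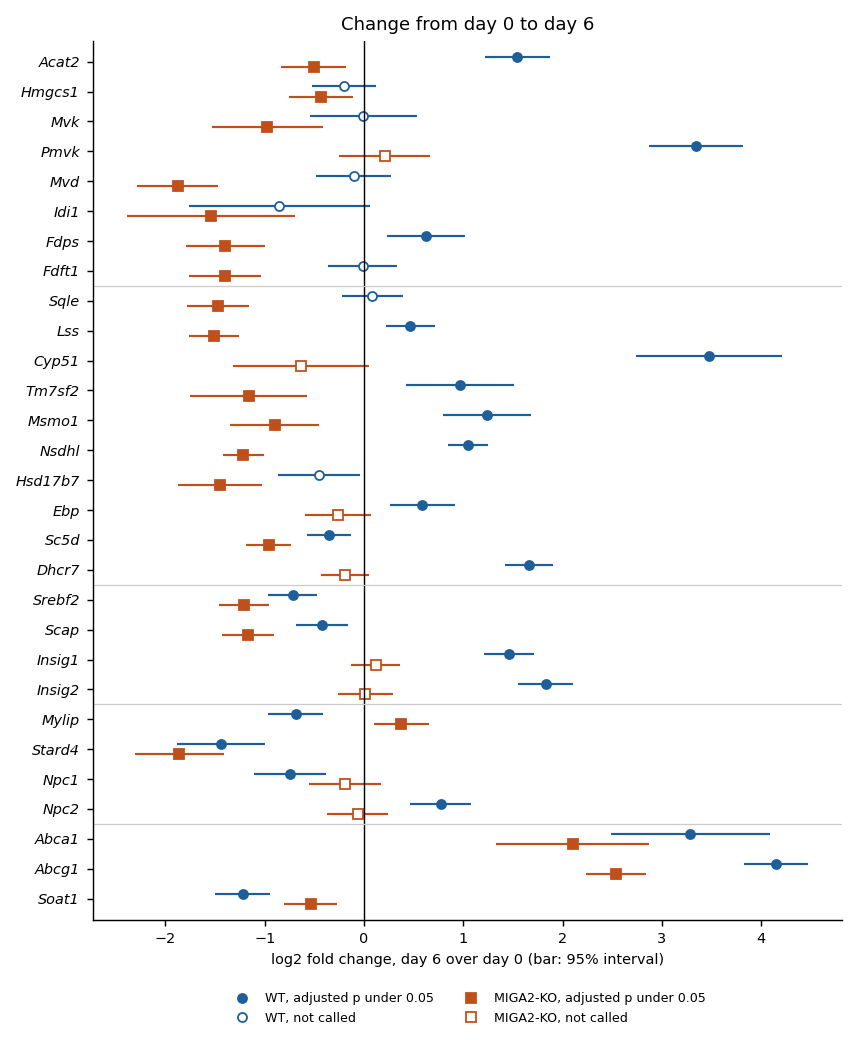
Log2 fold change from day 0 to day 6 for each of the 29 genes in WT (circles) and MIGA2-KO (squares), with bars for the 95% interval and filled symbols where the adjusted p was under 0.05. In WT the symbols of most enzymes lie at or to the right of 0, whereas in MIGA2-KO none of the 18 enzymes is filled to the right of 0 and 14 are filled to the left. Among all genes tested, 23.3% rose and 21% fell in MIGA2-KO.

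Gene by gene, the 2 time courses fell into a few combinations. There were 6 genes that rose in WT and fell in MIGA2-KO (Acat2, Fdps, Lss, Msmo1, Nsdhl and Tm7sf2), and all 6 had an interaction that passed the test. Another 7 rose in WT and did not pass in MIGA2-KO (Cyp51, Dhcr7, Ebp, Insig1, Insig2, Npc2 and Pmvk), all 7 with a passing interaction. A further 7 fell in MIGA2-KO and did not pass in WT (Fdft1, Hmgcs1, Hsd17b7, Idi1, Mvd, Mvk and Sqle), of which 4 had a passing interaction. The 5 genes that fell in both were Sc5d, Scap, Soat1, Srebf2 and Stard4, the 2 that rose in both were Abca1 and Abcg1, Mylip fell in WT and rose in MIGA2-KO, and Npc1 fell in WT alone by the tests used. Of these calls in WT, the fall of Sc5d (-0.35) became 0.026 (adjusted p = 0.774) after correction for gene length and GC content. In a fit of the WT libraries alone, Sc5d (adjusted p = 0.0911), Scap (0.0637), Ebp (0.0574) and Fdps (0.0641) missed the threshold at nearly the same log2 values. The interaction values were largest for Cyp51 (-4.11 ± 0.46, adjusted p = 2.15e-05) and Pmvk (-3.14 ± 0.30, adjusted p = 5.24e-06).

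At day 6, 17 of the 29 genes were lower in MIGA2-KO than in WT (31.5% of all genes were lower) and 3 were higher (29.2% of all genes). The median log2 difference was -0.70 for the 29, beside -0.01 over all genes tested. Without the 3 libraries that stood apart, 20 were lower and 5 higher, where 37.8% of all genes were lower and 36.1% higher. In MIGA2-GFP against WT at day 6, 6 genes were lower (18.9% of all genes) and 7 higher (16.5% of all genes), with a median of -0.01 beside 0.00. These are 20.7% and 24.1% of the 29 genes, the former near the share over all genes. Leaving out WT day 6 replicate 1 alone raised the number higher in MIGA2-GFP to 11, where 21.9% of all genes were higher, and leaving out the 3 libraries gave 11 in each direction, where 31.2% of all genes were higher and 30.7% lower. These 2 comparisons share the WT day 6 libraries.

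Set side by side, the values of the 2 lines relative to WT at day 6 lay far apart for some genes and close together for others. For Cyp51 the log2 difference from WT was -3.80 ± 0.35 in MIGA2-KO and -0.16 ± 0.31 in MIGA2-GFP, the latter with a 95% interval of -0.83 to 0.51. For Dhcr7 the values were -1.32 and 0.02, and for Insig1 -0.70 and -0.01, so in both genes MIGA2-GFP lay near WT. Pmvk was lower in both lines (-3.03 and -1.70 ± 0.21, the latter with adjusted p = 6.72e-05), as were Acat2, Fdps, Mvd, Npc2 and Nsdhl. Srebf2 was higher than WT in MIGA2-GFP (0.78 ± 0.12, adjusted p = 0.000257) with 0.06 in MIGA2-KO. Of the 7 genes higher in MIGA2-GFP, 3 were enzymes after squalene or at its epoxidation (Sqle, Hsd17b7 and Sc5d), with log2 differences of 0.45 to 0.61. That is 30% of the 10 enzymes of this stretch (16.5% of all genes were higher), and 1 of the 10 was lower (18.9% of all genes). Fdps lower in MIGA2-GFP (-0.57) and Hsd17b7 higher (0.56) each missed the threshold without WT day 6 replicate 2 or 3 or any 1 MIGA2-GFP library (-0.58 to -0.47 with adjusted p = 0.0659 to 0.0977, and 0.49 to 0.58 with adjusted p = 0.0722 to 0.132), and Mylip higher (0.47) without WT day 6 replicate 2 (0.41, adjusted p = 0.0649) or 3 (0.40, adjusted p = 0.0568).

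The direct comparison of the 2 lines at day 6 gave 19 genes higher in MIGA2-GFP than in MIGA2-KO (25.4% of all genes) and 1 lower, Mylip (22.5% of all genes). The median was 0.98 beside 0.02 over all genes. Enzymes accounted for 14 of the 19, led by Cyp51 (3.63 ± 0.35, adjusted p = 2.46e-06; 4.45 when the library labelled MIGA2-KO day 6 replicate 1 was left out), Tm7sf2 (2.19 ± 0.28, adjusted p = 2.48e-05) and Msmo1 (1.92 ± 0.21, adjusted p = 8.01e-06). Insig1, Insig2 and Srebf2 were also higher, as were both exporters. MIGA2-GFP day 6 also had the higher adipocyte marker sum of the 2 lines, and its part in these differences was not tested.

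**Figure D5:**
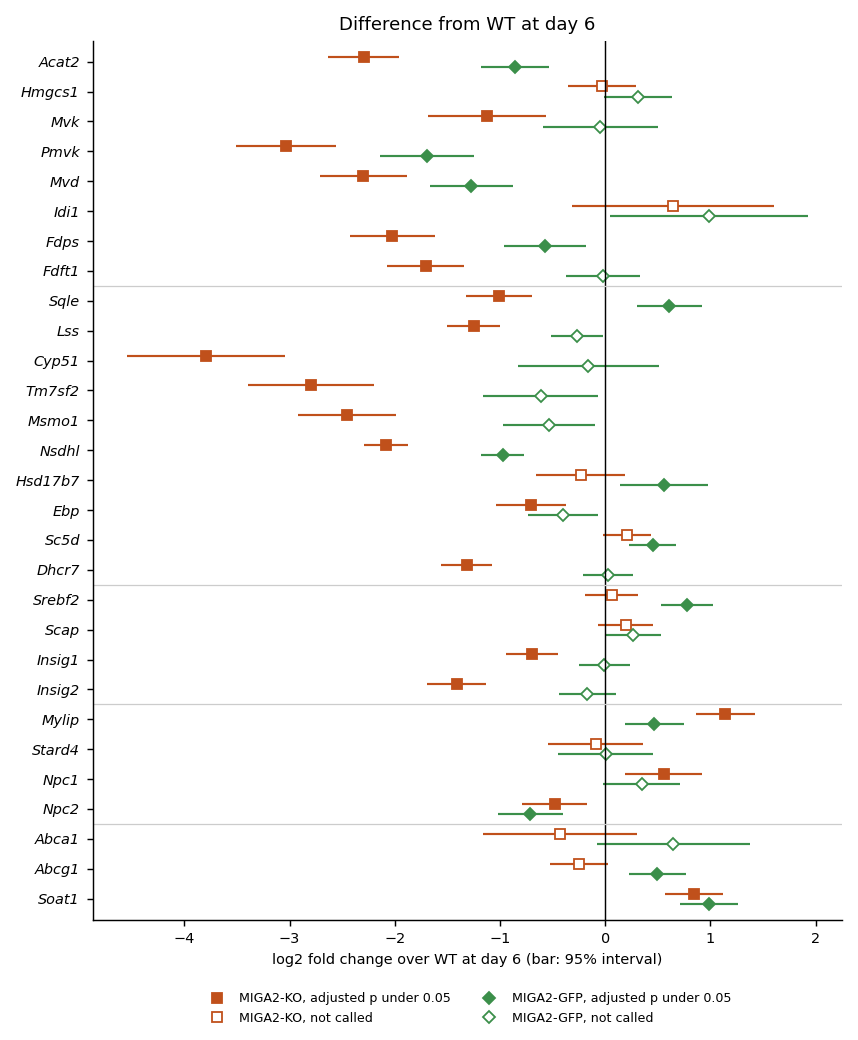
Log2 difference from WT at day 6 for each of the 29 genes in MIGA2-KO (squares) and MIGA2-GFP (diamonds), with bars for the 95% interval and filled symbols where the adjusted p was under 0.05. Both comparisons use the same 3 WT libraries. The MIGA2-KO symbols of Cyp51 (-3.80), Pmvk (-3.03) and Tm7sf2 (-2.80) lie farthest to the left, and Mylip (1.14) farthest to the right among the filled ones.

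At day 0, most of the genes that differed were higher in MIGA2-KO. In all, 11 of 29 genes were higher in MIGA2-KO than in WT (16.1% of all genes) and 1 was lower (17.7% of all genes), with a median of 0.32 beside -0.03 over all genes tested. All 4 sterol-sensing genes were among the 11, with Scap at 0.94 ± 0.12 (adjusted p = 7.86e-05), Insig1 at 0.64 ± 0.12 (adjusted p = 0.000924) and Srebf2 at 0.55 ± 0.12 (adjusted p = 0.00259). The enzymes higher at day 0 were Idi1, Sc5d, Hsd17b7, Lss, Sqle and Dhcr7, and the exporter Abcg1 had the largest difference (1.36 ± 0.15, adjusted p = 2.25e-05). The 1 lower gene, Mvd (-0.53 ± 0.18, adjusted p = 0.034), missed the threshold without WT day 0 replicate 1 (-0.31, adjusted p = 0.153) or 2 (-0.55, adjusted p = 0.0531), or without any 1 MIGA2-KO day 0 library (-0.56 to -0.47, adjusted p = 0.071 to 0.117). Insig2 (0.41) was lost without any 1 of 4 libraries (WT day 0 replicate 1 or 2, MIGA2-KO day 0 replicate 1 or 2; 0.35 to 0.40, adjusted p = 0.0597 to 0.0831), and Idi1 without MIGA2-KO day 0 replicate 1 (1.21, adjusted p = 0.0564). Without WT day 0 replicate 1, Ebp (0.38, adjusted p = 0.0257) and Npc2 (0.55, adjusted p = 0.00365) passed as higher, and without WT day 0 replicate 3, Abca1 passed as higher (1.12, adjusted p = 0.0304) and Tm7sf2 as lower (-0.83, adjusted p = 0.0272). Without the 3 libraries that stood apart, of which WT day 0 replicate 1 is the one in this comparison, 17 genes were higher and 5 lower, where 24.7% of all genes were higher and 25.1% lower.

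The order of the 5 group means summarises the members. MIGA2-KO day 6 was the lowest group for 15 of the 29 genes, WT day 0 for 7 and WT day 6 for 7. WT day 6 was the highest for 11, MIGA2-KO day 0 for 10, MIGA2-GFP day 6 for 4, WT day 0 for 3 and MIGA2-KO day 6 for 1, which was Mylip. Divided by merged exon length in kilobases (RPKM), the levels of different genes can be compared only roughly, since the merged length can exceed that of the transcript present. In WT day 6 Npc2 led with a level of 510.3 ± 81.3 RPKM (SD, n = 3), followed by Cyp51 at 229 ± 3.53, Acat2 at 130.2 ± 16.9 and Pmvk at 124 ± 29.8. In MIGA2-KO day 6 Npc2 again led, at 366 ± 15.9 RPKM, but Insig1 was next, at 51.1 ± 1.62, and Cyp51 stood at 16.5 ± 12.3. Idi1 had the lowest level in both groups (0.734 ± 0.515 and 1.16 ± 0.101 RPKM).

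Genes that surround the pathway were counted from lists by function, to be read beside the shares over all genes tested: 31.7% rose and 33.1% fell in WT, and 31.5% were lower and 29.2% higher in MIGA2-KO than in WT at day 6. In the processing and degradation of SREBP and its partners, 9 of 13 genes rose and 1 fell in WT, and 8 were lower and none higher in MIGA2-KO than in WT at day 6. Tmem97, a sterol-regulated membrane protein, was lower in MIGA2-KO (log2 difference -2.12 ± 0.19, adjusted p = 5.66e-07) and had risen in WT (log2 fold change 2.28 ± 0.19, adjusted p = 6.4e-08), and Srebf1, which encodes SREBP-1, rose in WT (log2 fold change 2.81 ± 0.19, adjusted p = 8.16e-09, mean 30.5 to 214 CPM). Of 10 genes of liver X receptor signalling and lipoprotein receptors, 6 rose and 3 fell in WT, and 6 were lower and 1 higher in MIGA2-KO at day 6. The number that fell in WT is near the share over all genes. Nr1h3, the liver X receptor alpha, rose in WT (log2 fold change 4.96 ± 0.20, adjusted p = 2.97e-11, mean 4.82 to 150.5 CPM) and stood at a mean of 44.5 CPM in MIGA2-KO day 6, below WT (-1.76 ± 0.17, adjusted p = 1.29e-06). Its target exporters Abca1 and Abcg1 did not pass the test there. Scarb1, the receptor for high-density lipoprotein, rose in WT (log2 fold change 4.08 ± 0.21, adjusted p = 5.05e-10), and Lrp8, a receptor of the same family as the very-low-density lipoprotein receptor, fell in WT (-3.04 ± 0.48, adjusted p = 6.03e-05, and -4.71 without WT day 6 replicate 3). Lrp8 had very few counts, at 1.98, 3.15 and 2.86 CPM in WT day 0 and 0.09, 0.097 and 0.777 in WT day 6, so the size of its fall is uncertain.

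Of 5 genes that supply cytosolic acetyl-CoA, 3 rose and none fell in WT (31.7% and 33.1% of all genes), and 4 were lower and none higher in MIGA2-KO at day 6 (31.5% and 29.2% of all genes). They were led by Slc25a1, the mitochondrial citrate carrier (-1.70 ± 0.16, adjusted p = 8.24e-07), Acly, which splits citrate (-1.24 ± 0.13, adjusted p = 1.7e-06), and Acss2, which activates acetate (-1.10 ± 0.15, adjusted p = 3.29e-05). In the branches from the mevalonate pathway to ubiquinone, dolichol, prenylated proteins and modified tRNA, 8 of 11 genes rose and 2 fell in WT, and 7 were lower and 1 higher in MIGA2-KO at day 6, beside the same shares. Trit1, which adds an isoprenoid to tRNA (-1.69 ± 0.18, adjusted p = 2.86e-06), and Pdss1, which makes the ubiquinone side chain (-1.58 ± 0.18, adjusted p = 7.05e-06), had the largest differences. In intracellular sterol transport and ester turnover, 5 of 17 genes tested were higher and 6 lower in MIGA2-KO at day 6. These are 29.4% and 35.3% of the list, near the shares over all genes. Nceh1, a cholesteryl ester hydrolase, was higher in MIGA2-KO (log2 difference 2.26 ± 0.15, adjusted p = 3.5e-08, mean 20.9 against 4.35 CPM) and had fallen in WT (-2.84 ± 0.15, adjusted p = 4.32e-10), and Osbpl8, an oxysterol-binding-protein relative, was higher (log2 difference 2.56 ± 0.26, adjusted p = 2.32e-06). After correction for gene length and GC content the values were 1.73 for Osbpl8, -1.43 for Tmem97 and -1.09 for Slc25a1. Gramd1b, a carrier of plasma membrane cholesterol, rose in WT (log2 fold change 3.72 ± 0.10, adjusted p = 6.23e-13).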

How the data were processed

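RNA-seq libraries of mouse 3T3-L1 cells were prepared with a stranded TruSeq protocol, per the labels' protocols. Per the submitters' processing notes, the tools were bcl2fastq 2.19, Trimmomatic, STAR 2.5.4b, featureCounts and edgeR, with build GRCm38.p5; which tool did what, the annotation, the strand setting and the treatment of reads with several matches are recorded by none of these sources. The deposited files hold raw read counts per Ensembl gene, as whole numbers, 1 file per library, with 25700 identifiers, of which 25664 were matched to a symbol.

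From these counts, edgeR 4.0.16 (R 4.3.3) fitted all 15 libraries with 1 term per group, after filterByExpr (minimum count 10, minimum total 15), TMM scaling and glmQLFit. Tests were two-sided quasi-likelihood F tests, Benjamini-Hochberg adjusted over 12279 genes with a threshold of 0.05, and the common biological coefficient of variation was 15.96%. CPM values are TMM-scaled, RPKM values use merged exon lengths, errors of log2 values are standard errors, and 95% intervals use the model's degrees of freedom. Totals of at least 10748668 counts per library limit precision for low genes such as Idi1. The script was tested on simulated data in which few genes were changed, for WT day 6 against day 0. It recovered 22.4% of 1.5-fold, 68.7% of 2-fold and 97% of 4-fold changes, with 7 false calls among 132. A gene that did not pass a test is therefore not shown to be unchanged.

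Alternatives were relative log expression factors, DESeq2 1.42.0, no filter, a fit of the compared groups alone, a replicate block, correction for GC content and length, limma 3.58.1 voom with quality weights, leaving out 3 libraries together, and leaving out each library; for Miga2 and the named genes of the surrounding lists these were added after seeing the data. The genes named are the 29 members, Miga2, and up to 3 called genes per surrounding list with the largest change in a comparison. Members, lists, markers and the 3 libraries were chosen with earlier results of these data known. A few genes of the pathway are not reported here.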

Additional observations from a re-analysis of the deposited data

Results flagged for a closer look

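The difference between the 2 time courses (change from day 0 to day 6 in MIGA2-KO minus that in WT) passed the edgeR interaction test, with Benjamini-Hochberg adjustment over all genes, for 23 of the 29 genes. Of these, 21 were lower and 2 higher in MIGA2-KO (13.6% and 13.7% of all genes tested). Among the enzymes from acetyl-CoA to squalene the log2 values were -3.14 for Pmvk, -2.05 for Acat2, -2.02 for Fdps, -1.78 for Mvd and -1.39 for Fdft1. Among those from squalene to cholesterol they were -4.11 for Cyp51, -2.26 for Nsdhl, -2.14 for Msmo1, -2.13 for Tm7sf2, -1.98 for Lss, -1.85 for Dhcr7, -1.55 for Sqle, -0.999 for Hsd17b7, -0.85 for Ebp and -0.61 for Sc5d. All 10 enzymes of the latter stretch were lower, beside 13.6% of all genes. The sterol-sensing genes followed with -1.82 for Insig2, -1.34 for Insig1, -0.74 for Scap and -0.49 for Srebf2. Abcg1 had -1.61 and Npc2 -0.83. Hsd17b7, Sc5d, Scap, Srebf2 and Abcg1 were higher in MIGA2-KO than in WT at day 0. With all libraries, none of these passed the test between genotypes at day 6. Their day 0 means were 73.0, 137, 214, 242 and 7.77 CPM in MIGA2-KO, beside 42.9, 77.7, 112, 165 and 3.01 CPM in WT. Their interaction values therefore include this day 0 difference. Mylip (1.06) and Soat1 (0.68) were the genes whose change was higher in MIGA2-KO. For Cyp51 the value became -4.92 when the library labelled MIGA2-KO day 6 replicate 1 was left out. Mvk and Npc1 passed as well when WT day 0 replicate 1 (-1.26 and 0.75, adjusted p = 0.00712 and 0.00398) or WT day 6 replicate 1 (-1.23 and 0.74, adjusted p = 0.00626 and 0.0207) was left out.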

How the results depend on the processing

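Of the calls for single genes, 18 of 22 held under all 14 alternatives for WT over time (not Ebp, Fdps, Sc5d and Scap), 18 of 21 for MIGA2-KO over time (not Acat2, Hmgcs1 and Mylip), 9 of 12 for MIGA2-KO against WT at day 0 (not Idi1, Insig2 and Mvd), 17 of 20 at day 6 (not Ebp, Npc1 and Soat1), 9 of 13 for MIGA2-GFP against WT (not Abcg1, Fdps, Hsd17b7 and Mylip), 19 of 20 for MIGA2-GFP against MIGA2-KO (not Abca1), and 21 of 23 for the interaction under its 20 alternatives (not Soat1 and Srebf2). The sign turned, with a call on either side, in these cases, and the cause was not tested: Sc5d after correction for GC content and length (0.026 in WT over time and -0.29 for MIGA2-KO against WT at day 6), Fdft1 (0.19), Mvd (0.26) and Mvk (0.54) in WT over time without the 3 libraries that stood apart, Npc1 at day 0 without them (-0.19), and Fdps at day 0 without them (0.27) and with voom quality weights (0.23). At day 0, 2 genes were lower with DESeq2 (18% of all genes), 0 in the fit of the compared groups alone (13.2%), 3 with voom (27.5%) and 5 without the 3 libraries (25.1%), and 19 were higher with voom (27.4%) and 17 without them (24.7%). At day 6, voom and the fit without the 3 libraries each gave 5 genes higher in MIGA2-KO than in WT (35.2% and 36.1% of all genes). For MIGA2-GFP against WT, voom gave 11 higher and 10 lower (29.1% and 29.3% of all genes), and the fit without the 3 libraries 11 and 11 (31.2% and 30.7%). For MIGA2-GFP against MIGA2-KO the number lower was 3 in the fit of the compared groups alone (31.2%), 3 with voom (35.5%) and 2 without the 3 libraries (32.5%), and the correction for GC content and length left 1 gene higher for the interaction (19%). For Miga2 at day 6, a check added after seeing the data, the difference of MIGA2-KO from WT was -0.99 with voom, -1.24 without the 3 libraries and -1.17 to 1.63 with 1 library left out.

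Leaving out 1 library at a time gave 15 higher and 7 to 10 lower for WT over time (28.8% to 34.9% and 29.2% to 36.5% of all genes). For MIGA2-KO over time it gave 2 to 3 and 16 to 19 (19.1% to 20.8% and 17.6% to 19.4%). MIGA2-KO against WT had 9 to 12 and 0 to 2 at day 0 (11.1% to 18.3% and 11.5% to 19.9%), and 2 to 4 and 17 to 18 at day 6 (24.6% to 31.8% and 27.7% to 33.2%). MIGA2-GFP had 5 to 11 and 5 to 8 against WT (10% to 21.9% and 12.4% to 22%), and 18 to 20 and 1 against MIGA2-KO (20.1% to 25.6% and 17.7% to 23%). The interaction had 2 to 3 and 20 to 22 (10.6% to 21.7% and 9.96% to 20.7%). Same-numbered libraries of WT day 0 and WT day 6 deviated from their group means in opposite directions (correlation of deviations -0.723, -0.363 and -0.524). In all other pairs of groups the correlation was -0.071 to 0.116, so the replicate numbers gave no positive pairing there. With the replicate number as a block, 15 genes were higher and 7 lower for WT over time (30.5% and 31.2% of all genes). For MIGA2-KO over time the counts were 3 and 17 (21.4% and 19.6%). MIGA2-KO against WT had 11 and 0 at day 0 (13.7% and 14.8%), and 3 and 17 at day 6 (27.5% and 30.2%). MIGA2-GFP had 6 and 6 against WT (14.1% and 16.3%), and 19 and 1 against MIGA2-KO (23.8% and 20.8%). The interaction had 2 and 21 (11.2% and 11.5%).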

Other observations

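Fatty acid synthesis, the other lipid route fed by cytosolic acetyl-CoA, was counted in the same way. Of 11 genes, 8 rose and 2 fell in WT from day 0 to day 6 (31.7% and 33.1% of all genes tested), and 8 were lower and 2 higher in MIGA2-KO than in WT at day 6 (31.5% and 29.2% of all genes). Thrsp, a lipogenic gene of fat and liver, was lower in MIGA2-KO at a log2 difference of -4.78 ± 0.43 (adjusted p = 6.71e-07), Scd1, the stearoyl-CoA desaturase, at -2.11 ± 0.43 (adjusted p = 0.000762) and Fasn, the fatty acid synthase, at -2.08 ± 0.13 (adjusted p = 1.96e-08). When the library labelled MIGA2-KO day 6 replicate 1 was left out, the values were -5.69 for Thrsp and -3.25 for Scd1. Of 4 genes of oxysterol and steroid handling tested out of 7 listed, 2 rose and 1 fell in WT, and 1 was higher and 2 lower in MIGA2-KO at day 6, counts too small to set against the shares over all genes. Hsd11b1, which activates glucocorticoids and also reduces an oxysterol, rose in WT by a log2 fold change of 5.09 ± 0.13 (adjusted p = 4.24e-13) and was lower in MIGA2-KO at day 6 at -1.88 ± 0.12 (adjusted p = 1.96e-08).

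The library labelled MIGA2-KO day 6 replicate 1 was above both other libraries of its group for 21 of the 29 genes, below both for 6 (Idi1, Mvk, Mylip, Npc2, Scap and Srebf2) and between them for 2 (Nsdhl and Pmvk). Its level was 3.27 times the mean of the other 2 for Cyp51, 2.02 times for Msmo1, 1.76 times for Tm7sf2, 1.70 times for Abca1, 1.65 times for Fdft1 and 1.59 times for Sqle. The same library held Miga2 at 926 CPM.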
